A study of Mus musculus with 16 samples.

Results

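The 8 genes described here, Spp1, Gpnmb, Trem2, Mmp12, Arg1, Cd5l, Adam8 and Lgals3, are transcripts carried by lipid-associated macrophages or by closely related macrophages of fat tissue. They were taken by symbol from a table of 14023 genes, and all 8 were found there. The list was chosen by knowledge of these macrophages and with earlier results of the same libraries in view, in which Spp1 and Arg1 stood out in the response to rosiglitazone in WT epididymal fat and Spp1 also in that response averaged over both genotypes. The values of that response are therefore given below as a description. All 8 genes reached 1 FPKM (fragments per kilobase of transcript, scaled to the mapped fragments of the library) in at least 2 libraries of each depot and so entered the tests, which ran over 13669 genes.

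The libraries were poly(A) RNA sequencing of epididymal white adipose tissue (eWAT) and inguinal white adipose tissue (iWAT) from mice given chow for 10 weeks and a high-fat diet (60% of calories as fat) for the next 19. The mice were wild type (WT) or homozygous for K107R, in which a lysine of PPARg, a nuclear receptor and the target of rosiglitazone, is replaced by arginine. Each received rosiglitazone at 10 mg/kg or the vehicle, 1% methylcellulose, by gavage for a week. Depot, genotype and treatment give 8 groups with 2 libraries each, 16 in all, and the libraries of a group are named number 1 and number 2. Nothing in the labels says how many animals gave a library. The labels name a homozygous mutant and no cell type to which the change is limited, so effects through fat cells and through macrophages cannot be told apart in these tissue samples.

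Lipid-associated macrophages gather around dying, lipid-filled fat cells in obese fat, above all in the epididymal depot, where they take up and break down lipid. Trem2, a surface receptor for lipids and lipoproteins that signals through the adaptor Tyrobp, is needed for them to form this state. PPARg is itself a regulator of lipid handling in macrophages as well as in fat cells.

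Promoters are shown for 4 of the genes, because Trem2 and Adam8 differed between genotypes in iWAT, and Spp1 and Cd5l differed most between treatments in eWAT among the genes with an entry. They run from 250 bases before to 50 after a RefSeq start site (GRCm38.p6 table, which held 7 of the 8 genes and not Arg1), and are written 5′ to 3′ on the strand of the gene, in lower case with motif matches in capitals. Trem2 is at chr17:48346151-48346450 on the + strand, Spp1 at chr5:104434861-104435160 on the + strand, Cd5l at chr3:87357631-87357930 on the + strand and Adam8 at chr7:139992513-139992812 on the - strand.
Trem2: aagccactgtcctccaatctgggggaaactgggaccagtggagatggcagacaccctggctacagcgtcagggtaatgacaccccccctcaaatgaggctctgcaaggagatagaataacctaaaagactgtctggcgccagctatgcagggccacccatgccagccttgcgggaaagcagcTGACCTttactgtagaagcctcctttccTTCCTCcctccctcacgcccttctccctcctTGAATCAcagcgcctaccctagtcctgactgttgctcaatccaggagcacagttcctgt
Spp1: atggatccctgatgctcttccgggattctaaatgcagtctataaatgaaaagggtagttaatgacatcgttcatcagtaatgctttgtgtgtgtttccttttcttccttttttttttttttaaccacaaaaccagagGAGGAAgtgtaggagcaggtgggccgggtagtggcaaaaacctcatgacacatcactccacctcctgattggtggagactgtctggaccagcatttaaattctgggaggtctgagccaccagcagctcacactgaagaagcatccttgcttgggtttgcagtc
Cd5l: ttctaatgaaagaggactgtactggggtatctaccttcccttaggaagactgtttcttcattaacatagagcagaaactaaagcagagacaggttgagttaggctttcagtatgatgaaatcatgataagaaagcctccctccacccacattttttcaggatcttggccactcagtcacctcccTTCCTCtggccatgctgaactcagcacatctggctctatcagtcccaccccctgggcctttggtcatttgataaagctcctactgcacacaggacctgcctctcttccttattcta
Adam8: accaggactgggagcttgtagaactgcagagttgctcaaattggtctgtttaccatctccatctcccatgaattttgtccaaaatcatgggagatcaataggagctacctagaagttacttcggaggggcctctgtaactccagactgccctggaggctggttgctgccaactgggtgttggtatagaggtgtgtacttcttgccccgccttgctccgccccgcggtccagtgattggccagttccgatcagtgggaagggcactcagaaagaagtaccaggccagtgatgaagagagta
Both strands were searched for AGGTCA, the hexamer bound by nuclear receptors; for 2 such hexamers on 1 strand with 1 base between them, the element of PPARg with its partner RXR; for CACGTG, the E box of the lysosomal regulator TFEB and its relatives; for TGANTCA, the AP-1 motif; and for GAGGAA, a core of PU.1 sites. The reverse complements TGACCT and TTCCTC are capitals in the sequences above too. The Trem2 promoter held TGACCT at -68, TTCCTC at -40 and TGAATCA at -9 from the start site. That of Spp1 held GAGGAA at -113, that of Cd5l held TTCCTC at -66, and that of Adam8 held no match. Another Spp1 entry, at chr5:104435942-104436241 on the + strand, is not shown and held no match. Neither the paired hexamer nor the E box was in any promoter of the 7 genes. Of all 32851 mouse promoters of this length, 28.3% held the PU.1 core, 16.3% the single hexamer, 7.81% the AP-1 motif, 7.15% the E box and 0.0396% the paired hexamer. These are letter matches, not measured binding.

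The 2 receptors and membrane proteins were abundant in eWAT. In vehicle-treated WT mice Trem2 (chr17:48346401-48354147) had 331 and 296 FPKM in eWAT and 35.2 and 29.1 FPKM in iWAT. Gpnmb (chr6:49036546-49070929), a glycoprotein of lysosomes and the cell surface, was at 937 and 855 FPKM in WT vehicle eWAT and at 69.1 and 47.6 FPKM in iWAT. Among the secreted proteins, Lgals3 (galectin-3, a lectin that binds galactose-containing sugars; chr14:47367751-47386160) was the highest of the 8 in both depots, with 1107 and 933 FPKM in WT vehicle eWAT and 165 and 112 FPKM in iWAT. Spp1 (osteopontin, a ligand of integrins and of Cd44; chr5:104435118-104441050) was at 86.0 and 88.1 FPKM in WT vehicle eWAT and at 6.25 and 6.08 FPKM in iWAT. Cd5l (a secreted scavenger-receptor protein of macrophages; chr3:87357881-87371073) was low, at 2.74 and 1.91 FPKM in WT vehicle eWAT and 1.10 and 0.673 FPKM in iWAT. The proteases were Mmp12 (macrophage elastase; chr9:7344381-7369499), with 527 and 390.3 FPKM against 34.6 and 17.1 FPKM, and Adam8 (a membrane-bound metalloprotease of leukocytes; chr7:139978932-139992562), with 168 and 155 FPKM against 22.0 and 22.1 FPKM. Arg1 (arginase 1, which splits arginine into ornithine and urea; chr10:24915221-24927484) was at 2.38 and 1.77 FPKM in WT vehicle eWAT and at 0.528 and 0.244 FPKM in iWAT. Coordinates are those of GENCODE M21 on GRCm38 and span the whole gene. Mmp12 overlaps Mmp1b on the opposite strand, Spp1 overlaps Gm42793 on its own strand, and Adam8 overlaps Gm16201 and Mir7062. How strand was used in counting is not given in the sources used here.

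The levels fell into a high set of 6 genes and a low pair. Over the 8 eWAT libraries Lgals3 ranked 53 by mean FPKM among the 14023 genes, Gpnmb 66, Mmp12 197, Trem2 228, Adam8 431 and Spp1 468, while Cd5l ranked 8420 and Arg1 8616. Lgals3 and Gpnmb overlapped in their ranges, as did Cd5l and Arg1, and neither pair was separated by the spread between libraries. In iWAT Spp1 ranked 7526, far below its place in eWAT, and Lgals3 431, Gpnmb 1023, Trem2 1738, Adam8 2742, Mmp12 2835, Cd5l 12857 and Arg1 13043. The 8 genes together took 0.466% to 0.694% of all FPKM in the eWAT libraries and 0.0536% to 0.0950% in those of iWAT.

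**Figure D1:**
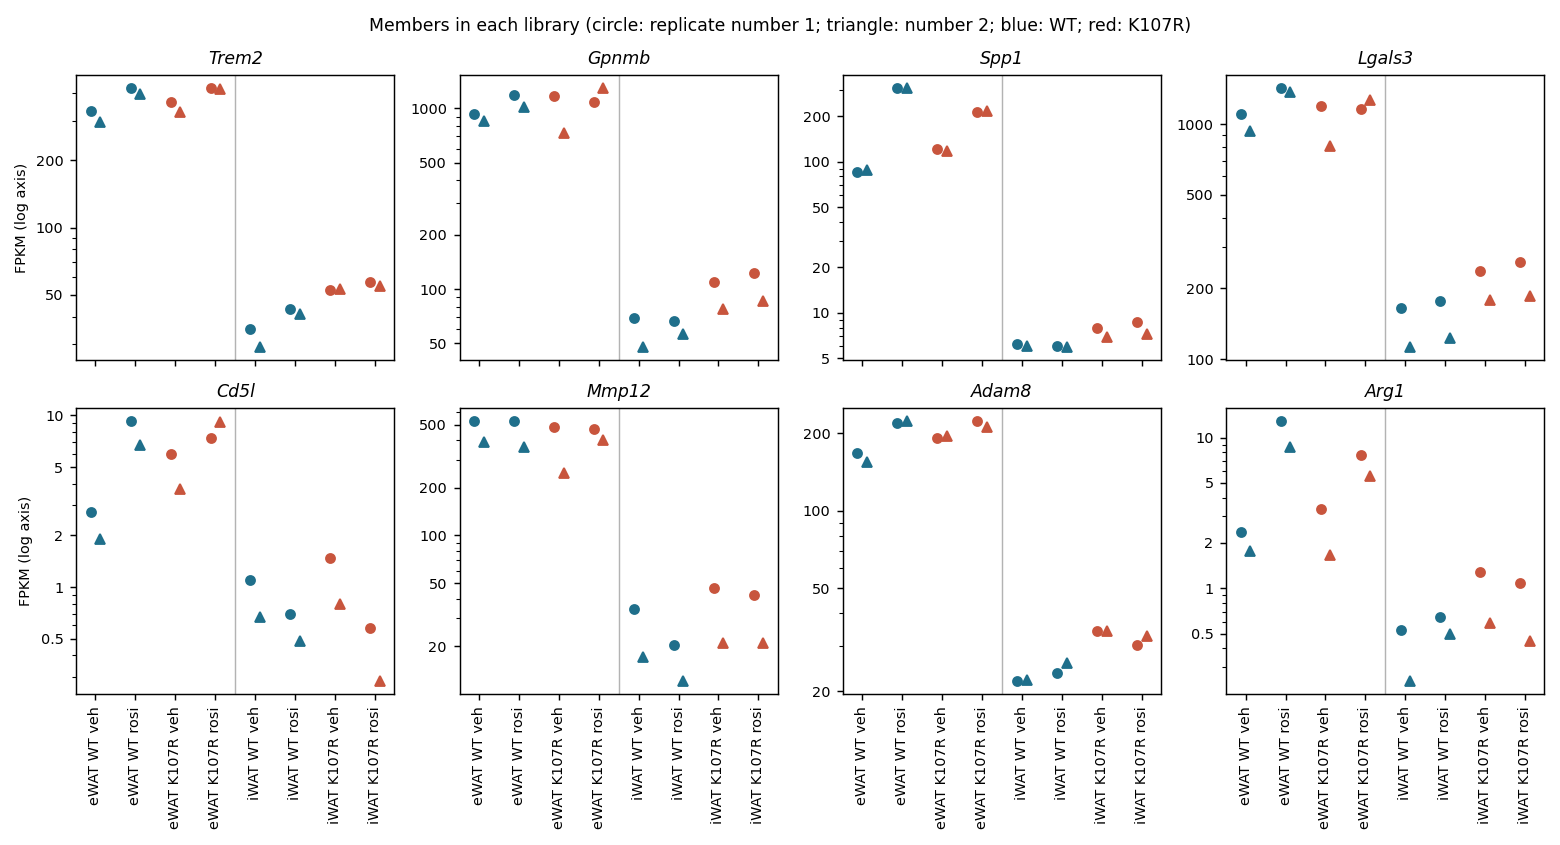
FPKM of each of the 8 genes on a log axis, 1 panel per gene, in the 8 groups. Each point is 1 library (circle, number 1; triangle, number 2; blue, WT; red, K107R), and the line parts eWAT from iWAT. Every eWAT point lies above every iWAT point of the same gene. In eWAT the rosiglitazone points of Spp1, Arg1, Cd5l, Trem2 and Adam8 lie above their vehicle points in both genotypes.

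All 8 genes were higher in eWAT than in iWAT, and for each of them the lowest eWAT library was above the highest iWAT library. Averaged over genotypes and treatments, the ratio of the mean FPKM was 26.5 for Spp1, 15.8 for Mmp12, 13.1 for Gpnmb, 8.27 for Arg1, 8.15 for Trem2, 7.73 for Cd5l, 7.08 for Adam8 and 6.45 for Lgals3. In vehicle-treated WT mice alone the order was another, with 17.7 for Mmp12, 15.4 for Gpnmb, 14.1 for Spp1, 9.77 for Trem2, 7.36 for Lgals3, 7.35 for Adam8, 5.37 for Arg1 and 2.63 for Cd5l. Spp1 had the highest ratio in vehicle-treated K107R, at 16.1 against 10.7 for Mmp12 and 10.2 for Gpnmb. It also had the highest with rosiglitazone, at 51.6 in WT and 26.8 in K107R. The lowest eWAT value exceeded the highest iWAT value 9.84 times for Spp1 and 1.30 times for both Arg1 and Cd5l. On the log2(FPKM + 1) scale the averaged difference was 4.38 ± 0.06 (SE, 8 libraries per depot) for Spp1, 4.02 ± 0.26 for Mmp12, 3.73 ± 0.14 for Gpnmb, 3.02 ± 0.06 for Trem2, 2.79 ± 0.05 for Adam8, 2.71 ± 0.14 for Lgals3, 1.86 ± 0.13 for Cd5l and 1.75 ± 0.15 for Arg1. In the limma fit over all 13669 genes 8 of 8 were called (adjusted p under 0.05), where 32.4% of all genes tested were. The adjusted p was 4.9e-10 for Trem2 and 1.0e-06 for Mmp12. The average includes the rosiglitazone eWAT libraries of the response for which Spp1 and Arg1 were known. For these genes the difference is therefore a description, and no p is given. Ranked by this difference, with the gene most in favour of eWAT at rank 1, Spp1 was at rank 6, Mmp12 at 8, Gpnmb at 10, Trem2 at 23, Adam8 at 33 and Lgals3 at 40 of the 13669 genes.

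Macrophage markers differed between the depots as well. The 8 markers Adgre1, Cd68, Csf1r, Itgam, Fcgr1, Mertk, Cd14 and Lyz2 summed to 3472 to 4688 FPKM in the eWAT libraries and 890 to 1362 FPKM in iWAT, and 8 of 8 were higher in eWAT, with a median log2 difference of 1.62 (Cd68 2.45, Adgre1 2.26, Mertk 0.62) against 0.10 over all genes. In tissue samples, fewer cells of a type and less RNA per cell cannot be told apart. When each library was set relative to its mean log2 level of these 8 markers, 2.73 ± 0.07 of the depot difference remained for Spp1, 2.37 ± 0.19 for Mmp12, 2.08 ± 0.09 for Gpnmb, 1.37 ± 0.07 for Trem2, 1.14 ± 0.09 for Adam8, 1.06 ± 0.09 for Lgals3 and 0.21 ± 0.08 for Cd5l. Arg1 kept 0.10 ± 0.10 and was no longer called. Its iWAT values of 0.244 to 1.28 FPKM are compressed on the log2(FPKM + 1) scale. By mean FPKM its depot ratio was 8.27, against 8.15 for Trem2. Relative to these markers, 7 of the 8 genes, Arg1 excepted, were still called higher in eWAT on this average. For Cd5l and Arg1 the average hid opposite signs on the log2(FPKM + 1) scale. Relative to the markers Cd5l was at -0.91 in vehicle-treated WT and 0.05 in vehicle-treated K107R. With rosiglitazone Cd5l was at 0.55 in WT and 1.16 in K107R. Arg1 was at -0.58 and -0.55 with vehicle and at 0.94 and 0.58 with rosiglitazone. Both genes stayed at or below 1.47 FPKM in iWAT, where this scale compresses differences, so these signs can depend on the added 1 FPKM. By mean FPKM, eWAT exceeded iWAT 5.37 times for Arg1 and 2.63 times for Cd5l in vehicle-treated WT. The other 6 genes were higher in eWAT relative to the markers in each of the 4 groups, with Spp1 at 1.89 in vehicle-treated WT.

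**Figure D2:**
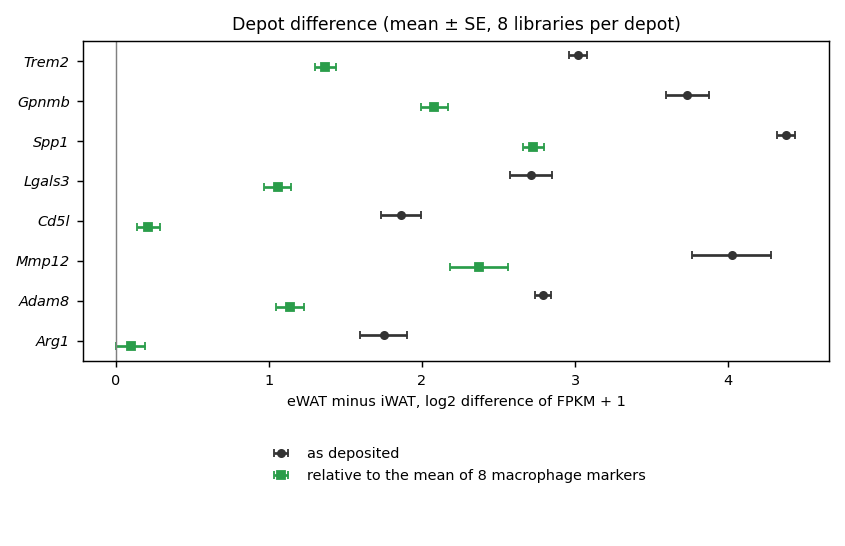
Difference between eWAT and iWAT in log2(FPKM + 1) for the 8 genes, averaged over the 4 groups of each depot (8 libraries) with its SE. Black circles are the values as deposited and green squares those relative to the mean of 8 macrophage markers, where Spp1 stays at 2.73 and Arg1 lies at 0.10. The scale compresses the low iWAT values of Arg1 and Cd5l.

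Most of the other genes of the same macrophage state were higher in eWAT too, as were the general macrophage markers. Of 29 further lipid-associated macrophage genes, several of which fat cells also express, 23 were higher and 1 was lower in eWAT (median log2 difference 1.51), where 19.9% of all genes were higher and 12.5% lower. Among the higher were Atp6v0d2, a subunit of the proton pump of lysosomes (3.06), the integrin Itgax (2.84), the lysosomal protease Ctss (2.54) and the sugar-phosphate exchanger Slc37a2 (2.49). Itgax was at 141 and 132 FPKM in WT vehicle eWAT and at 15.2 and 13.6 FPKM in iWAT. The phosphatase Acp5 was the 1 lower gene (-0.37). The median of this list was below that of the general macrophage markers, and differences relative to those markers are not given for it. Markers of resident macrophages were split, with 2 of 6 higher in eWAT (Folr2 0.97, Mrc1 0.67) and 3 lower (Timd4 -1.77, Cd163 -0.91, F13a1 -0.61). Of 25 partners and receptors of the 8 proteins 14 were higher and 2 lower.

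In WT eWAT, the comparison from which Spp1 and Arg1 were known, rosiglitazone went with higher Spp1, Arg1 and Cd5l. Spp1 was at 86.0 and 88.1 FPKM with vehicle and at 309 and 308 FPKM with rosiglitazone, 3.55 times as much by the means (log2 difference 1.82 ± 0.12, SE). The 2 libraries of each group lay close together and far from the other group. Arg1 was at 2.38 and 1.77 FPKM with vehicle and at 12.9 and 8.62 FPKM with rosiglitazone (1.92 ± 0.31). Cd5l was at 2.74 and 1.91 FPKM against 9.31 and 6.76 FPKM (1.44 ± 0.26). For both genes the groups did not overlap, and number 1 was above number 2 in each group. No overlap was seen for 7 of the 8 genes and for 26.8% of all genes. The differences of the others were smaller, with Lgals3 at 0.46 ± 0.28, Adam8 at 0.45 ± 0.10, Trem2 at 0.38 ± 0.12, Gpnmb at 0.30 ± 0.28 and Mmp12 at -0.06 ± 0.52. Adam8 went from 168 and 155 FPKM to 219 and 224 FPKM, and Trem2 from 331 and 296 FPKM to 423 and 395 FPKM, without overlap. Spp1 and Arg1 were called, 2 of 8 where 0.446% of all genes were, and 4 of 8 (also Cd5l and Adam8) where 2.47% were when the replicate number entered the fit as a block. Since this contrast chose the genes, nothing is read from these counts, and no p is given. Leaving out any 1 of the 4 libraries left 1 gene called, Spp1.

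By the limma fit 0 of the 8 macrophage markers were called in this comparison (1, Mertk, at an unadjusted p under 0.05), with a median log2 difference of 0.15 against 0.03 over all genes. Their sum was 3741 and 4688 FPKM with vehicle and 4034 and 4618 FPKM with rosiglitazone, and overlapped. Mast cell markers moved in the same libraries. They summed to 219.7 and 196 FPKM with vehicle and 438 and 420.2 FPKM with rosiglitazone, with 2 of 7 called higher (Tpsab1 and Fcer1a) and none at 0, and their part in the response was not tested. Of the 29 further lipid-associated macrophage genes 0 were called (4 at an unadjusted p under 0.05), with a median of 0.22. Relative to the mean of the 8 markers, the difference of Spp1 was 1.63 ± 0.14, of Arg1 1.74 ± 0.18 and of Cd5l 1.25 ± 0.15. That mean includes Mertk, which was itself higher with rosiglitazone (0.99 ± 0.24).

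In K107R eWAT, Spp1 rose with rosiglitazone by a smaller amount. It was at 122 and 117 FPKM with vehicle and at 214 and 215 FPKM with rosiglitazone, a log2 difference of 0.83 ± 0.12 (adjusted p = 0.0014), and the groups did not overlap. These libraries were part of the averaged response known beforehand, so this p is not independent support. Arg1 was at 3.37 and 1.67 FPKM with vehicle and at 7.62 and 5.61 FPKM with rosiglitazone (1.14 ± 0.31, adjusted p = 0.075). Cd5l was at 5.93 and 3.73 FPKM against 7.40 and 9.21 FPKM (0.69 ± 0.26, adjusted p = 0.28). Both had every rosiglitazone library above every vehicle library, as had 5 of the 8 genes, where the groups of 36.1% of all genes did not overlap. The others had log2 differences from 0.16 (Adam8) to 0.36 (Gpnmb). Trem2 was at 364 and 329 FPKM against 421 and 416 FPKM, Gpnmb at 1166 and 736 FPKM against 1080.0 and 1306 FPKM, and Lgals3 at 1191 and 810.3 FPKM against 1162 and 1272 FPKM. The latter pair of genes overlapped between treatments, and their vehicle libraries differed more from each other than the group means did. Markers of epididymis, a tissue next to this depot, summed to 2879 and 2776 FPKM in the vehicle libraries of this comparison. With rosiglitazone they summed to 0.308 and 4.49 FPKM, and their part in the response was not tested.

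Spp1 was the 1 of 8 called in K107R eWAT, where 4.89% of all genes were called. With the replicate block Arg1 (adjusted p = 0.00029) and Cd5l (adjusted p = 0.029) were called as well, 3 of 8 where 10.9% of all genes were. The median log2 difference of the 8 genes was 0.34 and that of all genes 0.17. Rescaling the libraries by their median ratio to the average library removed this shift of all genes, left 0.61 for Spp1 and ended its call (adjusted p = 0.30).

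**Figure D3:**
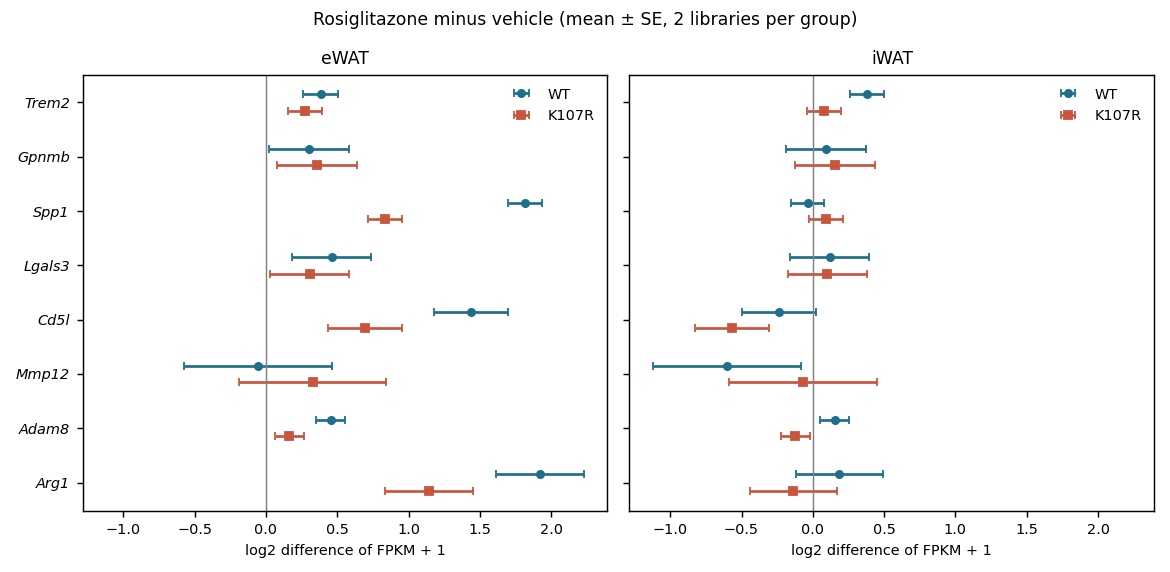
Rosiglitazone minus vehicle in log2(FPKM + 1) for the 8 genes in eWAT (left) and iWAT (right), with SE and 2 libraries per group. Blue circles are WT and red squares K107R. In eWAT Spp1 is at 1.82 in WT and 0.83 in K107R, and in iWAT at -0.04 and 0.09.

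The response of Spp1 was smaller in K107R than in WT eWAT by 0.98 ± 0.17 on the log2 scale, the interaction of genotype and drug. It was the 1 gene of 8 called for this interaction, where 2.53% of all genes were. The WT response for which Spp1 was chosen is a term of this difference, so no p is given for it and it is a description. It was -0.92 relative to the macrophage markers, where it was still called, and -1.19 after rescaling, where it was not. The interaction was -0.78 ± 0.43 for Arg1, -0.74 ± 0.37 for Cd5l and -0.29 ± 0.14 for Adam8, and the other 4 lay between -0.15 and 0.38. The K107R vehicle libraries, which held the epididymis markers, are an arm of the interaction, and the part of that tissue was not tested.

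The smaller response had 2 sides. With vehicle, Spp1 was at 122 and 117 FPKM in K107R against 86.0 and 88.1 FPKM in WT (0.46 ± 0.12). Cd5l was at 5.93 and 3.73 FPKM against 2.74 and 1.91 FPKM (0.79 ± 0.26), and Adam8 at 192 and 195 FPKM against 168 and 155 FPKM (0.26 ± 0.10). In each of the 3 genes both K107R libraries were above both WT libraries, 3 of 8 genes without overlap, where 32.4% of all genes had none. Of the 8 genes 0 were called, where 3.35% of all genes were (3 at an unadjusted p under 0.05). With the block Spp1 and Cd5l were, 2 of 8 where 8.30% of all genes were. The WT vehicle libraries are also an arm of the response that chose the genes, so these values are a description and no p is given. Markers of epididymis, a tissue next to this depot, summed to 2879 and 2776 FPKM in the K107R vehicle eWAT libraries and to at most 4.49 FPKM in any other library. Mast cell markers summed to 145 and 122 FPKM against 219.7 and 196 FPKM in WT, with 2 of 7 called lower. The part of either in these differences was not tested.

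With rosiglitazone the order was the opposite. Spp1 was at 214 and 215 FPKM in K107R against 309 and 308 FPKM in WT, a log2 difference of -0.52 ± 0.12. Arg1 was at 7.62 and 5.61 FPKM against 12.9 and 8.62 FPKM (-0.62 ± 0.31). Neither gene overlapped between genotypes, nor did Lgals3, 3 of 8 genes where 34.0% of all genes did not. Of the 8 genes 0 were called, where 0.907% of all genes were (1 at an unadjusted p under 0.05), and with the block 2 were, Spp1 and Arg1, where 3.47% of all genes were. This comparison shares the WT rosiglitazone libraries with the response above. The 8 macrophage markers summed to 3472 and 3663 FPKM in K107R and to 4034 and 4618 FPKM in WT, without overlap. Relative to their mean log2 level, Spp1 averaged 1.12 in K107R against 1.38 in WT, and Arg1 -3.72 against -3.37. Both gaps are smaller than those above, and the part of macrophage content was not tested. Mast cell markers summed to 185 and 179 FPKM in K107R against 438 and 420.2 FPKM in WT, with 4 of 7 called lower (Tpsab1, Mcpt4, Cma1 and Fcer1a) and none at 0, and their part in the difference was not tested. The other 6 genes had log2 differences from -0.20 (Lgals3) to 0.10 (Gpnmb), with Trem2 at 421 and 416 FPKM against 423 and 395 FPKM.

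In iWAT rosiglitazone had no effect on these genes that passed the test. Spp1 was at 6.25 and 6.08 FPKM with vehicle and 6.06 and 5.91 FPKM with rosiglitazone in WT (-0.04 ± 0.12), and at 7.96 and 6.88 FPKM and 8.74 and 7.26 FPKM in K107R (0.09 ± 0.12). Arg1 and Cd5l stayed at or below 1.47 FPKM in every iWAT library, where the scale of log2(FPKM + 1) compresses any change. Trem2 in WT had the smallest p, with 35.2 and 29.1 FPKM against 43.1 and 40.9 FPKM (0.38 ± 0.12, adjusted p = 0.23). Of the 8 genes 0 were called in WT, where 1.68% of all genes were, and 0 in K107R, where 4.21% were. At an unadjusted p under 0.05 there were 1 in WT and 0 in K107R. With the block Trem2 was called in WT (adjusted p = 0.028), 1 of 8 where 6.98% of all genes were. The interaction in iWAT had 0 of 8 called (0.966% of all genes; 0 at an unadjusted p under 0.05).

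The difference between depots in the response to rosiglitazone was also fitted, a comparison added after the data were seen. For Spp1 the response in eWAT exceeded that in iWAT by 1.85 ± 0.17 on the log2 scale in WT, which includes the response that chose it. In K107R it exceeded it by 0.74 ± 0.17, 1 of 8 genes called where 2.91% of all genes were. The K107R eWAT libraries were part of the averaged response that chose Spp1, so this too is a description with no p. With the block Arg1 (1.28 ± 0.43) and Cd5l (1.26 ± 0.37) were called too, 3 of 8 where 5.27% of all genes were. The Spp1 call ended after rescaling (0.54), with a pseudocount of 0.1 FPKM, relative to the macrophage markers (0.59) and without any 1 of 6 of the 8 K107R libraries (0.62 to 0.77). The K107R vehicle eWAT libraries, which held the epididymis markers, are an arm of the K107R comparison, and the part of that tissue was not tested.

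The genotypes differed in vehicle-treated iWAT, where Trem2 and Adam8 were higher in K107R. Trem2 was at 52.6 and 52.9 FPKM in K107R and 35.2 and 29.1 FPKM in WT (log2 difference 0.70 ± 0.12, adjusted p = 0.033). Adam8 was at 34.2 and 34.3 FPKM against 22.0 and 22.1 FPKM (0.61 ± 0.10, adjusted p = 0.028). For both genes the K107R libraries lay together, above both WT libraries. Gpnmb was at 109 and 77.4 FPKM against 69.1 and 47.6 FPKM (0.67 ± 0.28, adjusted p = 0.90) and Lgals3 at 237 and 178 FPKM against 165 and 112 FPKM (0.59 ± 0.28, adjusted p = 1). In these 2 genes number 1 was well above number 2 in each group, and the groups did not overlap. There was no overlap in 6 of the 8 genes, where 15.8% of all genes had none. Mmp12 was at 46.9 and 21.0 FPKM against 34.6 and 17.1 FPKM and overlapped. Spp1 was at 7.96 and 6.88 FPKM against 6.25 and 6.08 FPKM (0.23 ± 0.12). Of the 8 genes 2 were called, where 0.578% of all genes were, and all 8 differences were positive, with a median of 0.53 against -0.06 over all genes.

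By the limma fit 0 of the 8 macrophage markers were called here, and 0 had an unadjusted p under 0.05. Their median difference was 0.11. Of the 29 further lipid-associated genes 0 were called and 6 had an unadjusted p under 0.05, with a median of 0.20. Itgax was at 24.0 and 20.9 FPKM against 15.2 and 13.6 FPKM. Relative to the 8 macrophage markers the difference was 0.58 for Trem2 (adjusted p = 0.11) and 0.49 for Adam8 (adjusted p = 0.39). Skeletal muscle markers summed to 104 and 111 FPKM in K107R vehicle iWAT and to 27.0 and 29.5 FPKM in WT, with 5 of 7 called higher and none at 0. Their part in the result was not tested. Both calls ended when any 1 of the 4 libraries was left out (adjusted p 0.063 to 0.33 for Trem2 and 0.15 to 0.25 for Adam8), and after rescaling, although both differences then grew, to 0.78 and 0.69.

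With rosiglitazone the same genes lay higher in K107R iWAT without passing the test. Trem2 was at 56.9 and 54.8 FPKM against 43.1 and 40.9 FPKM (0.40 ± 0.12, adjusted p = 0.13), Adam8 at 30.2 and 32.6 FPKM against 23.5 and 25.8 FPKM (0.34 ± 0.10, adjusted p = 0.13) and Gpnmb at 122 and 86.3 FPKM against 66.5 and 56.5 FPKM (0.73 ± 0.28, adjusted p = 0.32). None of the 3 overlapped between genotypes, and 6 of the 8 genes did not, where 23.6% of all genes did not. Mmp12 was at 42.4 and 21.1 FPKM against 20.3 and 12.1 FPKM (0.89 ± 0.52). Of the 8 genes 0 were called, where 4.13% of all genes were (4 at an unadjusted p under 0.05). With the block 5 of 8 were called, Gpnmb, Mmp12, Trem2, Adam8 and Spp1, where 9.36% of all genes were. B and plasma cell markers summed to 34.7 and 27.5 FPKM in these K107R libraries and to 274 and 239 FPKM in WT, with 5 of 6 called lower. Of the T and NK cell markers 5 of 6 were lower too, and of those of skeletal muscle 3 of 7 were higher. Their part was not tested.

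**Figure D4:**
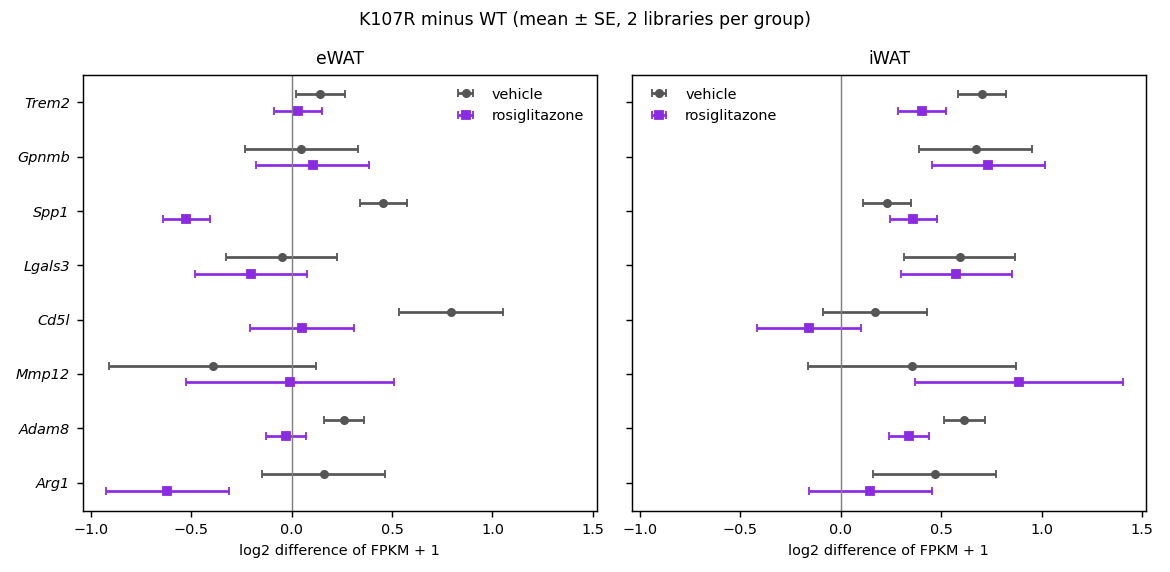
K107R minus WT in log2(FPKM + 1) for the 8 genes in eWAT (left) and iWAT (right), with SE and 2 libraries per group. Grey circles are vehicle and violet squares rosiglitazone. Spp1 in eWAT changes sign between the treatments, at 0.46 and -0.52, and in vehicle-treated iWAT all 8 genes are above 0.

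The genotype difference with vehicle was compared between depots as well. For Trem2 it was 0.14 ± 0.12 in eWAT and 0.70 ± 0.12 in iWAT, a difference of -0.56 ± 0.17 (adjusted p = 0.27), and for Adam8 0.26 ± 0.10 and 0.61 ± 0.10, a difference of -0.35 ± 0.14 (adjusted p = 0.78). Of the 8 genes 0 were called, where 2.43% of all genes were (2 at an unadjusted p under 0.05). With the block Trem2 was called (adjusted p = 0.036), 1 of 8 where 3.31% of all genes were. The higher level in K107R was thus not shown to be particular to iWAT without the block.

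The 8 genes did not follow 1 pattern within eWAT. Over the 8 eWAT libraries Pearson's r of log2(FPKM + 1) was 0.97 between Trem2 and Cd5l and 0.94 between Spp1 and Arg1, but -0.01 between Mmp12 and Adam8. These libraries share the treatments and the replicate numbers, so r is a description. The ratio of number 1 to number 2 within a group was 0.976 to 1.20 for Spp1, 0.912 to 1.08 for Adam8 and 0.994 to 1.21 for Trem2, but 1.18 to 2.23 for Mmp12 and 1.29 to 2.44 for Arg1. Mmp12 and Arg1 were thus higher in number 1 in all 8 groups. The genes with the eWAT pattern most like that of Spp1 among 11112 eligible ones were Arhgap39 (r = 0.99), the lysosomal protease Ctsd (0.95) and the immune receptor Havcr2 (0.95), with r over the 8 iWAT libraries of 0.62, -0.22 and -0.65. Ctsd was at 2980.1 and 2934 FPKM in WT vehicle eWAT and at 3777 and 3692 FPKM with rosiglitazone. Nearest to Arg1 was Mertk (0.99; 0.49 in iWAT), a receptor for the uptake of dying cells, at 12.2 and 11.0 FPKM with vehicle and at 26.8 and 21.6 FPKM with rosiglitazone in WT eWAT. Nearest to Cd5l was Tcirg1, a subunit of the lysosomal proton pump (0.98; 0.73 in iWAT), to Trem2 Chdh (0.99; 0.13), to Gpnmb Qdpr (0.99; 0.56), to Lgals3 Wdr11 (0.99; 0.42), to Adam8 Rusc2 (0.97; 0.37) and to Mmp12 Atp2b4 (1.00; 0.77).

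Calls within a depot among the partners of the 8 proteins and the regulators of macrophage lipid genes are given here by direction. Tyrobp, the signalling partner of Trem2, was at 900.1 and 1457 FPKM in WT vehicle eWAT and at 1085 and 1644 FPKM with rosiglitazone, with number 2 above number 1 in all 8 groups. Of the 25 partners and receptors 0 rose and 1 fell with rosiglitazone in WT eWAT, where 0.446% of all genes were called. In K107R eWAT 0 rose and 3 fell, where 4.89% of all genes were called. In iWAT 0 rose and 2 fell in each genotype, where 1.68% of all genes were called in WT and 4.21% in K107R. Nos2, the nitric oxide synthase that draws on the same arginine as Arg1, fell in all 4 of these comparisons, from 3.50 and 2.89 FPKM to 1.12 and 1.08 FPKM in WT eWAT (log2 difference -0.99) and from 7.15 and 5.89 FPKM to 1.99 and 1.85 FPKM in WT iWAT (-1.36). Of the 19 regulators 0 were called in WT (1 at an unadjusted p under 0.05 in eWAT and 2 in iWAT). In K107R 1 rose in eWAT, the nuclear receptor Ppara (0.71), and 1 fell in iWAT, Irf8 (-1.08). The K107R vehicle eWAT libraries, which held the epididymis markers, are an arm of the K107R eWAT calls. The part of that tissue was not tested. The shares of all genes called are those given above for the same comparisons.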

How the data were processed

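Gene expression was measured by stranded mRNA sequencing with single-end 75-nt reads. Per the submitters' processing notes the tools were CASAVA 1.8.2, TopHat2 2.0.12 and Cufflinks 2.2.1, on mm10. The authors deposited 1 table of FPKM for 14023 genes and 16 libraries. Columns were joined to samples by the sample's own description. FPKM holds no counts, and no whole-read steps were found in the low values, so the depth is unknown. Library sums were 411746 to 596519 FPKM, and the median FPKM was 8.95 to 9.61 in the number 1 libraries and 5.36 to 8.83 in number 2, which scales all ratios between them.

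Values were tested as log2(FPKM + 1), which understates changes of low genes, with limma 3.58.1 in R 4.3.3 (8 group means, moderated with a trend, two-sided, Benjamini-Hochberg over the 13669 genes that reached 1 FPKM in 2 or more libraries, called at an adjusted p under 0.05). The fit was tested on simulated data. Nothing says that libraries came from separate animals, so p-values measure the spread between these libraries, which may be technical. Same-numbered libraries deviated together from their group means in 28 of 28 pairs of groups (r 0.12 to 0.79), so the replicate number was treated as pairing them and the fit with it as a block is given where it changes a call. The members, lists and tests were chosen with earlier results of these data known. All 8 members are named, and from the other lists up to 4 called genes per comparison with the largest change. Not every gene so chosen is printed, and 8 of 170 listed genes were not in the table. The 3 depot comparisons of responses were added after the data were seen.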

Additional observations from a re-analysis of the deposited data

Results flagged for a closer look

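The response of Spp1 to rosiglitazone in eWAT differed between the genotypes, by -0.98 ± 0.17 on the log2(FPKM + 1) scale (K107R minus WT). The WT response, for which Spp1 was chosen, is part of this value. In K107R the response of Spp1 was larger in eWAT than in iWAT by 0.74 ± 0.17. The K107R eWAT response was part of the averaged response that also chose Spp1, so both values are descriptions. The call of the latter ended after rescaling, with a pseudocount of 0.1 FPKM, relative to the macrophage markers and without any 1 of 6 of the 8 K107R libraries. The K107R vehicle eWAT libraries, an arm of both values, held epididymis markers at 2879 and 2776 FPKM. The part of that tissue was not tested.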

How the results depend on the processing

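Counts of the 8 genes called were recomputed under each alternative, and no difference of a called gene changed sign. The share of all genes called changed with the block too, as from 3.35% to 8.30% for K107R against WT in vehicle eWAT. Shares under the other alternatives are not given here, so nothing is read from a change in these counts alone. Comparisons that share libraries with the response that chose the genes remain descriptions. The depot difference kept 8 of 8 without any 1 library. The rosiglitazone response in WT eWAT went from 2 genes to 1 with a pseudocount of 0.1 FPKM, with the depot's libraries alone and without any 1 library (1 to 1), and to 4 with the replicate block. In K107R eWAT it went from 1 to 2 after rescaling by the median ratio and relative to the macrophage markers, to 3 with the block, to 3 with both the markers and the block, and to 1 to 2 without 1 library. With rescaling the 2 genes did not include Spp1.

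For K107R against WT in vehicle eWAT, 0 became 1 after rescaling, 2 with the block, 2 relative to the markers and 5 with both. In rosiglitazone eWAT 0 became 2 with the block and 2 with both. The eWAT interaction went from 1 to 2 with both. In iWAT the WT response went from 0 to 1 with the block and 2 with both, and the K107R response from 0 to 1 after rescaling and 1 with both. For K107R against WT in vehicle iWAT, 2 became 0 after rescaling, with the depot alone, relative to the markers and without any 1 library (0 to 0). In rosiglitazone iWAT 0 became 3 after rescaling, 5 with the block and 2 with both. The depot difference of the K107R response went from 1 to 0 with a pseudocount of 0.1, to 2 after rescaling, to 3 with the block, to 3 with both, and to 0 to 1 without 1 library; that of the vehicle genotype difference went from 0 to 1 with the block, 1 relative to the markers and 2 with both. The cause was not tested. The replicate block changed no other count. Marker-centred fits with the block were added after seeing the data, as was a fit without 64 abundant genes listed at 0 in some library, which changed no count. Unknown depth limits the low genes, Arg1 and Cd5l in iWAT above all, and groups of 2 limit every comparison.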

Other observations

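Genes of alternative macrophage activation did not share the depot pattern of the lipid-associated genes. Of 14 in the table, 9 were lower and 5 higher in eWAT, with Cd209d (log2 difference -1.73), Retnla (-1.50) and Mgl2 (-1.32) among the lower. Among all genes tested, 19.9% were called higher and 12.5% lower in eWAT. Retnla, a secreted protein induced by interleukin-4, was at 394 and 386 FPKM in WT vehicle eWAT and at 659 and 668 FPKM in WT vehicle iWAT. In K107R eWAT it fell with rosiglitazone, from 370.3 and 272 FPKM to 134 and 160 FPKM (-1.11). The lectin Clec10a rose with rosiglitazone in eWAT of both genotypes. It went from 54.4 and 43.8 FPKM to 91.7 and 88.8 FPKM in WT (0.87). In K107R it went from 57.8 and 60.8 FPKM to 112 and 90.0 FPKM (0.75). The K107R vehicle eWAT libraries, which held the epididymis markers, are an arm of both K107R changes. The part of that tissue was not tested.

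Arg2, the mitochondrial arginase, was at 1.72 and 1.24 FPKM in K107R vehicle eWAT and at or below 0.162 FPKM in every other library. The same 2 libraries held the epididymis markers at 2879 and 2776 FPKM, and the part of that tissue in the Arg2 value was not tested.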
